A study of Homo sapiens with 6 samples.

Results

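The RAB genes encode small GTPases that mark membranes and direct the traffic of vesicles between them. A RAB protein cycles between a GTP-bound state, which recruits effectors such as motors and tethers, and a GDP-bound state. Exchange factors switch it on, GTPase-activating proteins switch it off, and prenylation lets it sit in a membrane. Different RAB proteins act in secretion, in recycling to the cell surface, in early and late endosomes, and between the endoplasmic reticulum and the Golgi, and in carcinoma cells these routes carry integrins, growth factor receptors, and proteases.

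All array probes whose gene name is RAB followed by a number and at most 1 letter from A to F were taken, which gave 60 of 36337 distinct names, and 77 of the 50599 probes, on the array. A probe was kept if, in every cell line, 1 or both arrays showed it well above background. Of the RAB probes, 55 were kept, from 45 genes, among 19956 probes kept in all. Of the kept RAB probes, 53 were measured well above background on each of the 6 arrays. By symbol or accession, all 60 names were found in the RefSeq gene table, and RAB39 is now called RAB39A.

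The arrays come from 3 established lines of human oral squamous cell carcinoma (OSCC), HSC-3, KON, and Ca9-22. Each line was treated with siDLEU1-2, a small interfering RNA against the long noncoding RNA DLEU1 (labeled siDLEU1), or with a control siRNA (siCtrl), and total RNA was taken at 72 h. There is 1 array for each line and siRNA, so replication rests on the 3 lines alone, and no error can be given for a change within 1 line. A single DLEU1 siRNA was on the arrays, so effects of losing DLEU1 and of the siRNA sequence cannot be told apart. DLEU1 itself fell, with log2 fold changes of -4.10, -3.63, and -3.44 in the lines as just named (adjusted p = 0.0227 from limma). Of 10 squamous epithelial markers, 9 were well above background on all 6 arrays, and TP63 was so on 5. CDH1 (mean 2.92) and both probes of KRT18 (1.83 and 1.40) were called higher after siDLEU1-2, and TP63 (-2.46), KRT6A (-1.33), and SFN (-0.81) were called lower. Of 7 endothelial and fibroblast markers, COL3A1 and PDGFRB were not well above background on any array, VWF and CDH5 reached it on 5 arrays, PECAM1 and DCN on 1, and COL1A1 on all 6. COL1A1 was called higher after siDLEU1-2 (mean 1.45, adjusted p = 0.0423 from limma), and the summed signal of this list, in multiples of the 75th percentile, was 1.19 to 1.67 after siCtrl and 2.60 to 4.07 after siDLEU1-2. Of the leukocyte markers reported here, CD14 and CD68 were well above background on all 6 arrays, PTPRC on 2, and CD3E on 1, and CD68 was called lower (mean -1.39, adjusted p = 0.0278 from limma), while CD14 had changes of 0.43, 0.51, and 0.58 and was not called. The part of all these markers in the results below was not tested.

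Values given in threes are always those of HSC-3, KON, and Ca9-22, in that order. All levels below are log2 of the processed signal after subtraction of the array's own 75th percentile, so that 0 is that percentile and a probe's level can be compared between arrays but not with another probe. Changes are log2 fold changes, siDLEU1-2 over siCtrl within a line, and means are given ± SD over the 3 lines. A probe was called when its adjusted p from limma, fitted over all 19956 probes with the cell line as a block, was below 0.05. In bulk RNA, fewer cells with a transcript and less transcript in each cell cannot be told apart.

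The sequences below show where the siRNA and a RAB probe have complementary bases, and which stretches of RAB18 its probes read. The antisense strand of siDLEU1-2 is printed with its seed, bases 2 to 8, in capitals. Bases 31 to 60 of the RAB8A probe (chr19:16244352-16244411 on hg19, plus strand) are printed with the complement of that seed in capitals. The first 30 bases of each RAB18 probe (chr10:27828374-27828433 and chr10:27815759-27815818, plus strand) have no capitals because no motif is marked.
siDLEU1-2 antisense: uUAAGUGCgauaaccccugua
RAB8A A_33_P3320127: tctgtttacatcgataaatGCACTTAagga
RAB18 A_24_P132787: taaaaacctcacattctacttgatttacac
RAB18 A_33_P3299754: gttgactttaaggtgaaaacaatttcagtg

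RAB genes moved in both directions after siDLEU1-2. RAB22A, RAB5C, RAB2A, RAB8A, RAB3A, and RAB11A fell, RAB1A rose, and RAB18 rose on 1 of its 2 probes, and the remaining RAB genes with a kept probe were not called. limma called 9 of the 55 kept RAB probes (16.4%), against 8.5% of all probes kept. Of these, 3 were higher, where 3.98% of all probes were, and 6 were lower, where 4.52% of all probes were. They belong to 8 genes, because RAB1A has 2 called probes, and 25 RAB probes (45.5%) had an unadjusted p below 0.05, against 29.5% of all probes. Under the fold threshold of the study, 2 RAB probes were over 2-fold higher in all 3 lines and 5 were over 2-fold lower, against 2.08% and 2.08% of all probes. Of the 55, 0 passed 2-fold in all 3 lines with opposite directions between them, against 0.215% of all probes. RAB30, described below, passed it in opposite directions in HSC-3 and KON only. The median change of the RAB probes was -0.087, beside 0.0073 for all probes, and the median size of a change regardless of sign was 0.41, beside 0.29. By line, the RAB median was -0.030, -0.23, and -0.047, and that of all probes was -0.0016, 0.019, and -0.0083. In all 3 lines, 18 RAB probes were higher and 23 were lower, so that 74.5% kept 1 sign across lines, beside 53.6% of all probes. These calls need all 3 lines: with HSC-3 or KON left out, limma called 0 RAB probes (unadjusted, 19 and 16 had p below 0.05), and with Ca9-22 left out it called RAB22A alone.

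**Figure D1:**
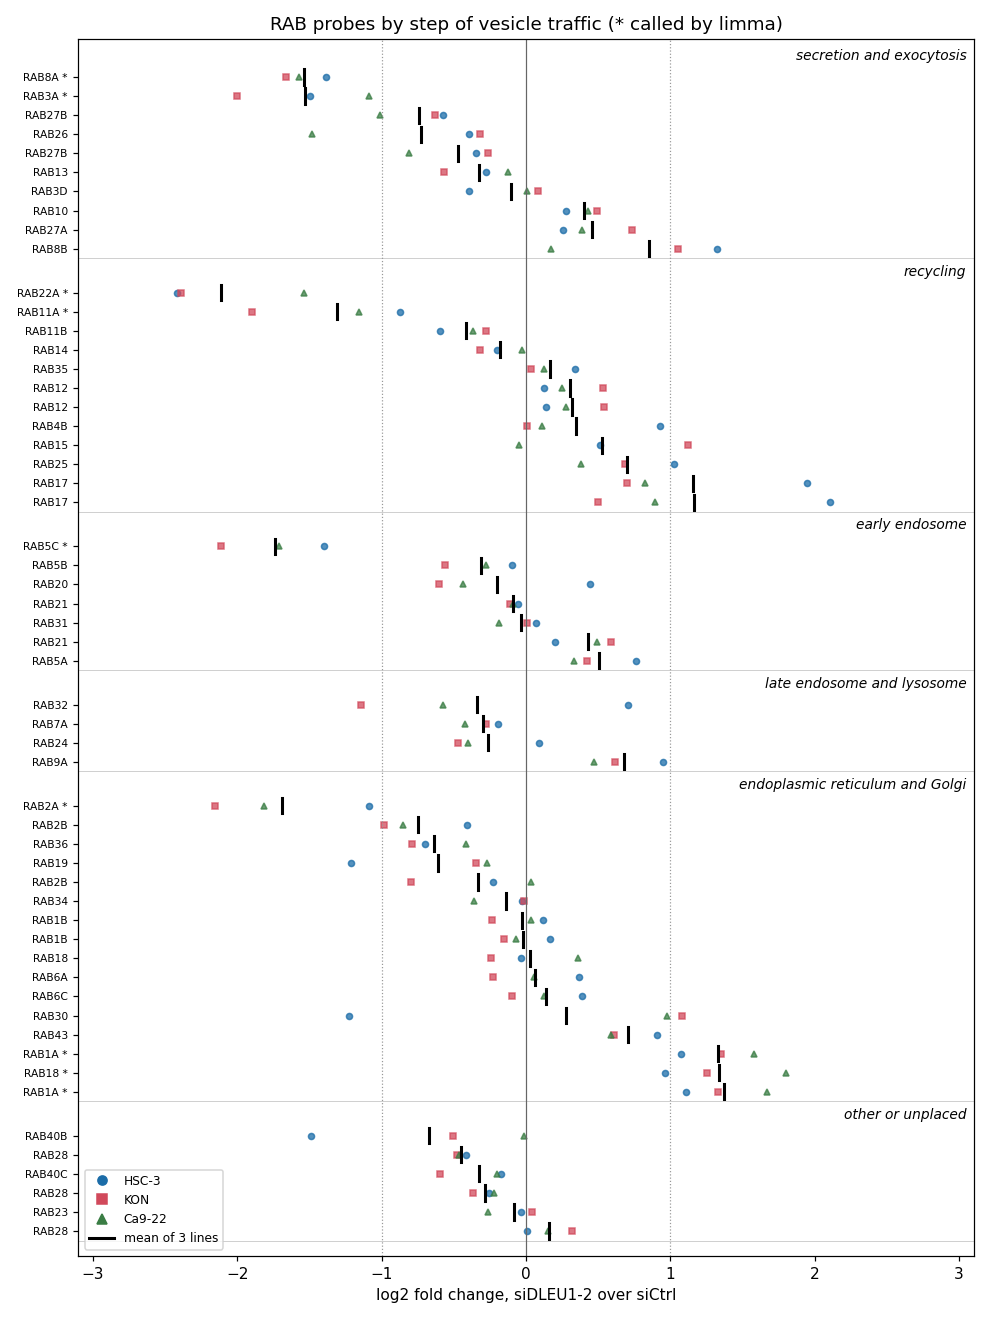
Each row is 1 of the 55 kept RAB probes, grouped by step of traffic, and the x axis is the log2 fold change of siDLEU1-2 over siCtrl; points are the 3 lines, the black bar is their mean, dotted lines mark 2-fold, and a star marks a probe called by limma. The 9 starred probes have means from -2.12 to -1.31 and from 1.33 to 1.37, and RAB30 has HSC-3 on the other side of 0 from KON and Ca9-22.

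Among the RAB genes of secretion and exocytosis, 2 of 10 kept probes were lower, RAB8A and RAB3A, none was higher (all probes: 4.52% lower and 3.98% higher), and the median change was -0.40, beside 0.0073 for all probes. RAB8A carries vesicles from the Golgi and recycling compartments to the plasma membrane. Its signal after siCtrl was 3.87, 3.95, and 4.64, and after siDLEU1-2 it was 2.48, 2.29, and 3.07. All 3 siDLEU1-2 values lay below all 3 siCtrl values. The mean change was -1.54 ± 0.14 (adjusted p = 0.0247 from limma), or 2.61-fold, 3.16-fold, and 2.97-fold lower. This is the probe that holds GCACTTA, the complement of the siRNA seed, at its bases 50 to 56. On the probe strand, GCACTTA occurs in 138 of the 50599 probes (0.273%) and in 1 of the 77 RAB probes. Over all 57 kept probes with GCACTTA the median change was -0.58, beside 0.0078 for those without, and 33.3% were called lower, against 4.52% of all probes. The shorter CACTTA, which lies within GCACTTA, is in 1.35% of all probes and in no other RAB probe. Its kept probes, which include all those with GCACTTA and so are not a separate set, had a median of -0.15, with 15.9% called lower. AACCCCT, the complement of bases 2 to 8 of the sense strand, is in 0.342% of all probes and in no RAB probe, and its kept probes had a median of -0.011, with 7.58% called lower. Transcripts outside the 60 bases of each probe were not searched, so absence of the match from the other probes says nothing about their transcripts, and whether the match has a part in the fall of RAB8A was not tested.

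RAB3A controls regulated exocytosis of secretory vesicles, best known in neurons. The signal of its probe (chr19:18307612-18307671, minus strand) after siCtrl was -0.37, -1.79, and -0.17, and after siDLEU1-2 it was -1.86, -3.80, and -1.26. Each line fell, but the groups overlap because KON was low under either siRNA, and its siDLEU1-2 array was not well above background. The mean change was -1.53 ± 0.46 (adjusted p = 0.0314 from limma), and with normexp background correction it was -0.74 (adjusted p = 0.0226), so its size is poorly fixed. RAB8B, the close paralog of RAB8A, was not called and had changes of 1.32, 1.05, and 0.17 (mean 0.85 ± 0.60). Within a line, the change of RAB8A minus that of RAB8B was -2.71, -2.71, and -1.74. Of the pair that docks secretory lysosomes and exosome-bearing compartments at the membrane, RAB27A had a mean of 0.46 ± 0.25, and both probes of RAB27B had negative means, -0.74 ± 0.24 and -0.47 ± 0.29, none of them called. RAB10, which serves basolateral delivery, had 0.40 ± 0.11. RAB3D, RAB13, and RAB26, the rest of this group, had means from -0.73 to -0.10 and were not called, and RAB3B, RAB3C, and RAB37 had no kept probe.

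The recycling group held the kept RAB probe with the largest fall, RAB22A. Of its 12 kept probes, 2 were lower and none was higher (all probes: 4.52% and 3.98%), and the median change was 0.31, beside 0.0073 for all probes. RAB22A acts at early endosomes and in the tubules that return cargo taken up without clathrin. Its signal (chr20:56942283-56942342, plus strand) after siCtrl was 1.63, 2.59, and 0.96, and after siDLEU1-2 it was -0.79, 0.20, and -0.58. The groups do not overlap, and the mean change was -2.12 ± 0.50 (adjusted p = 0.0247 from limma), or 5.35-fold, 5.23-fold, and 2.91-fold lower.

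RAB11A is the main RAB of the recycling endosome. Its probe (chr15:66181162-66181221, plus strand) gave 1.37, 1.47, and 1.82 after siCtrl, and 0.50, -0.43, and 0.67 after siDLEU1-2. The 3 lower values are those of siDLEU1-2, with the largest fall in KON. The mean change was -1.31 ± 0.53 (adjusted p = 0.0463 from limma), and HSC-3 stayed under 2-fold, at 1.83-fold. With a filter that asked for detection above background on 3 or more of the 6 arrays, RAB11A was no longer called (adjusted p = 0.0668). RAB11B, its paralog, had a mean of -0.41 ± 0.17 and was not called.

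RAB17 and RAB25, which are epithelial members of the recycling group, had positive changes in every line without being called. The first RAB17 probe had changes of 1.95, 0.70, and 0.83 and the other of 2.1, 0.50, and 0.89, each with a mean of 1.16 and adjusted p-values of 0.0788 and 0.105 from limma. HSC-3 thus had the largest value on both probes. RAB25 had a mean of 0.70 ± 0.32. The remaining means in this group lay between -0.18 for RAB14 and 0.53 for RAB15, and RAB4A had no kept probe.

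RAB5C alone was called among 7 kept probes of early endosomes (14.3%, beside 8.5% of all probes), whose median change was -0.087, so the count for this step is near that of all probes. RAB5 proteins drive fusion of endocytic vesicles with early endosomes. The RAB5C probe spans a splice junction on chromosome 17 and is printed as 10 spots on each array. Its signal after siCtrl was 1.99, 1.45, and 1.45, and after siDLEU1-2 it was 0.59, -0.67, and -0.26. The groups do not overlap. Spots of this probe had an SD between 0.039 and 0.117 within an array, which covers error within an array only and is small beside the mean change of -1.74 ± 0.36 (adjusted p = 0.0247 from limma). The folds were 2.64, 4.33, and 3.27. Of its paralogs, RAB5A had a mean of 0.51 ± 0.22 and RAB5B of -0.31 ± 0.23, and neither was called. Within a line, the change of RAB5C minus that of RAB5A was -2.16, -2.54, and -2.04. RAB20, RAB21, and RAB31, which complete the group, had means from -0.20 to 0.43 and were not called.

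Late endosomes and lysosomes had 4 kept probes, too few to read a count from beside the 8.5% called of all probes, and limma called 0 of them (1 had an unadjusted p below 0.05), with a median of -0.28. RAB7A, which directs traffic and fusion at late endosomes, had changes of -0.19, -0.28, and -0.42. RAB9A, which returns receptors from late endosomes to the Golgi, had 0.95, 0.62, and 0.47 (mean 0.68 ± 0.25, adjusted p = 0.0711 from limma). RAB24 and RAB32 had values of both signs among the lines, with means of -0.26 and -0.34. RAB7B, RAB9B, RAB38, RAB39, and RAB39B had no kept probe. The RAB7B probe was well above background on 1 array, HSC-3 after siCtrl, with 1.61, and gave -3.69 in HSC-3 after siDLEU1-2, not well above background, so it has only a bound and was not tested. RAB29 is carried on the array as RAB7L1, so the name rule leaves it out. RAB7L1 was looked up after the values were seen, and it had changes of -2.36, -2.91, and -1.94 (mean -2.40 ± 0.49, adjusted p = 0.0247 from limma), a larger fall than that of any kept RAB probe.

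**Figure D2:**
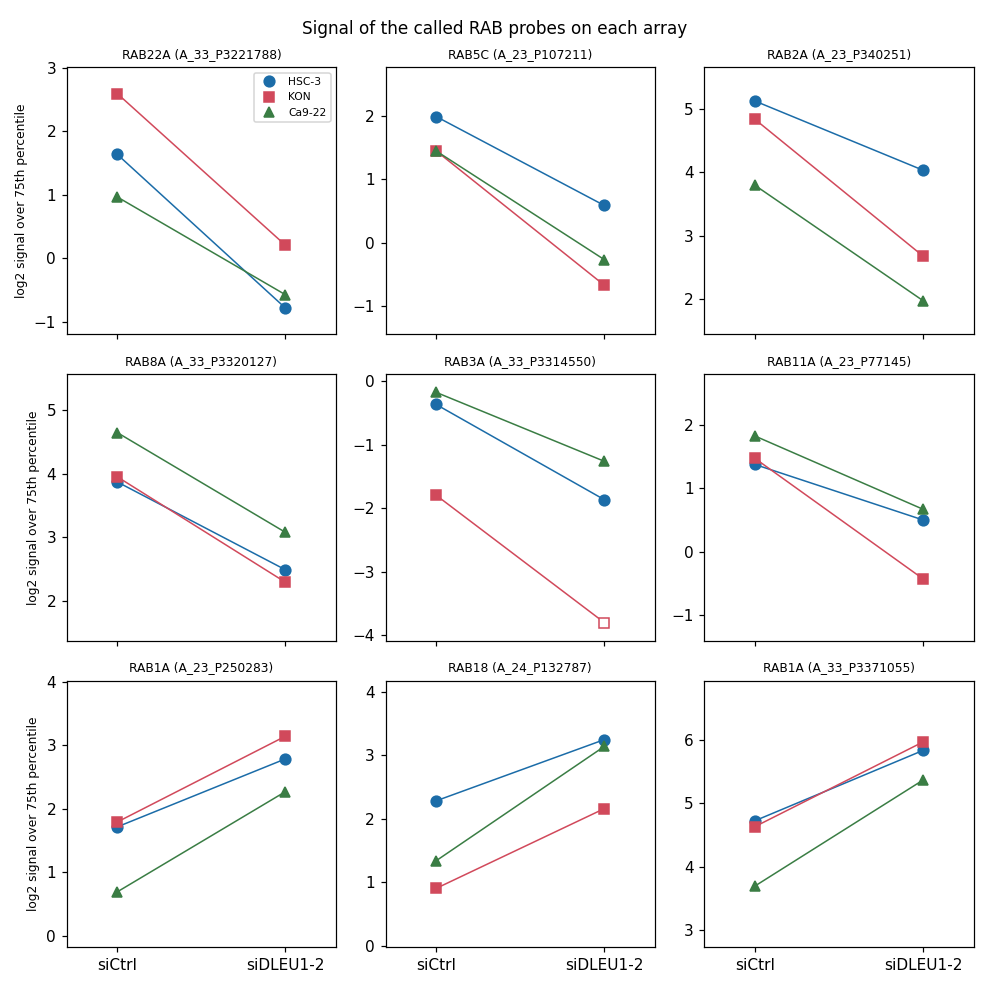
Each panel is 1 called RAB probe, with the log2 signal over the 75th percentile on the y axis (each panel has its own range, and all ranges span the same number of log2 units) and a line joining the siCtrl and siDLEU1-2 arrays of 1 cell line; the open square for RAB3A in KON was not well above background. Every line slopes the same way within a panel, down for 6 probes and up for 3, and KON has the steepest fall for RAB5C, RAB2A, RAB8A, RAB3A, and RAB11A.

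The RAB genes of the endoplasmic reticulum and Golgi had called probes in both directions, 3 higher and 1 lower of 16 kept (all probes: 3.98% higher and 4.52% lower), with a median of 0.0043. The 3 higher calls were 2 probes of RAB1A and 1 of RAB18. With the kept probes of each gene averaged, 1 RAB gene was called higher and 6 lower among all 45, and the share for all genes is not given here. RAB1A, which is required for traffic from the endoplasmic reticulum to the Golgi, rose on both of its probes. The probe at chr2:65314228-65314287 gave 1.72, 1.79, and 0.69 after siCtrl, and 2.79, 3.14, and 2.27 after siDLEU1-2. The probe at chr2:65315178-65315237 gave 4.72, 4.63, and 3.69, and then 5.83, 5.96, and 5.36. On either probe, the siDLEU1-2 values all lay above the siCtrl values. The mean changes were 1.33 ± 0.25 and 1.37 ± 0.28 (adjusted p = 0.0271 and 0.0274 from limma), and all 3 lines were over 2-fold on both. RAB1B, a near-identical paralog in protein, had means of -0.020 ± 0.17 and -0.027 ± 0.18 on its probes. The mean of RAB1A over its probes was above that of RAB1B by 0.95, 1.54, and 1.64. Cross-hybridization between paralogs was not tested.

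RAB2A, which also acts between the endoplasmic reticulum and the Golgi, moved the other way from RAB1A. Its signal after siCtrl was 5.12, 4.84, and 3.80, and after siDLEU1-2 it was 4.03, 2.68, and 1.98. The HSC-3 value after siDLEU1-2 was above the Ca9-22 value after siCtrl, so the groups overlap although each line fell, by 2.13-fold, 4.45-fold, and 3.52-fold. The mean change was -1.69 ± 0.54 (adjusted p = 0.0318 from limma). RAB2B, its paralog, had means of -0.75 ± 0.30 and -0.33 ± 0.42, not called. Over the comparisons of paralogs given here, with RAB8, RAB11, RAB5, RAB2, and RAB1, the called gene differed from its paralog with the same sign in 3 of 3 lines. These pairs were chosen because 1 gene of each was called, so their differences are a description and were not tested.

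RAB18, which works at the endoplasmic reticulum and lipid droplets, is the RAB gene whose probes disagreed. Its 2 probes are assigned to 1 transcript and start 12615 bases apart on hg19. The downstream probe, A_24_P132787, gave 2.28, 0.90, and 1.34 after siCtrl, and 3.25, 2.16, and 3.14 after siDLEU1-2. Every line rose, while the lowest siDLEU1-2 value (KON) lay under the highest siCtrl value (HSC-3). The mean change was 1.34 ± 0.42 (adjusted p = 0.0346 from limma), with HSC-3 just under 2-fold at 1.95-fold. The upstream probe, A_33_P3299754, gave 0.71, 0.27, and -0.13, and then 0.67, 0.03, and 0.23, a mean change of 0.028 ± 0.31 (adjusted p = 0.936). The downstream probe changed more than the upstream probe by 0.998, 1.5, and 1.44. When the probes of a gene were averaged, RAB18 was not called, and with the filter of at least 3 of 6 arrays its downstream probe was not called either (adjusted p = 0.0529). Which exons or ends of the transcript the probes read was not analyzed here.

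For the other RAB genes with several kept probes, the probes lay closer together. Of 14 RAB genes with more than 1 probe on the array, 9 had more than 1 kept, and in the 8 besides RAB18 the means of a gene were between 0.0057 and 0.61 apart. RAB17 had the closest probes and RAB28 the most distant. For RAB21 and RAB28, the means differed in sign, at -0.087 and 0.43 for RAB21 and from -0.45 to 0.16 for RAB28, and none was called. RAB1A, RAB1B, and RAB12 had probes within 0.037 of each other.

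**Figure D3:**
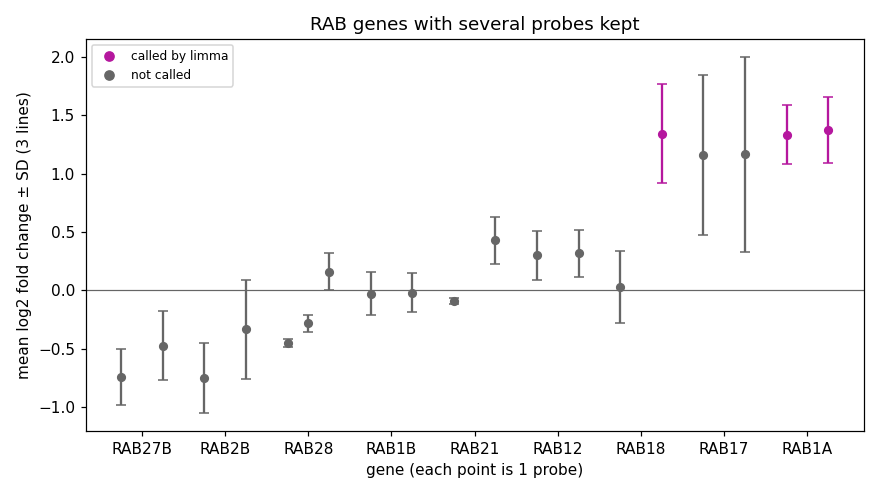
Each point is 1 kept probe of the 9 RAB genes with several kept probes, placed by its gene on the x axis, with the mean log2 fold change and its SD over 3 lines on the y axis; colored points were called by limma. The 2 points of RAB18 lie 1.31 apart, while those of RAB1A and RAB17 coincide within their SD.

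RAB30, a Golgi RAB, had large changes in every line but not in 1 direction, and was not called. Its signal after siCtrl was -1.62, -2.0, and -2.47, and after siDLEU1-2 it was -2.84, -0.92, and -1.49. The change was -1.22 in HSC-3, whereas KON and Ca9-22 had 1.08 and 0.98, on a probe that was well above background on all 6 arrays. RAB6A and RAB6C, whose sequences are nearly the same so that their probes cannot be taken as separate, had means of 0.064 and 0.14, and RAB43 had 0.70 ± 0.18 (adjusted p = 0.0571 from limma). RAB19, RAB34, and RAB36 had means from -0.64 to -0.14 and were not called. RAB6B, RAB33A, RAB33B, and RAB41 had no kept probe.

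The 6 kept probes of RAB genes with other or unplaced roles, namely RAB23, RAB28, RAB40B, and RAB40C, had means from -0.67 to 0.16, and limma called 0 of them (1 had an unadjusted p below 0.05), too few probes to set beside the 8.5% of all probes. RAB42 and RAB44 had no kept probe. In all, 22 RAB probes were not kept, of which 14 were well above background on no array and 8 on some.

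The regulators and effectors of the RAB cycle were taken from lists of 92 genes, all on the array, with 114 kept probes. limma called 14 of these probes (12.3%), against 8.5% of all probes, with 8 higher and 6 lower, from 13 genes, and 38 (33.3%) had an unadjusted p below 0.05, against 29.5% of all probes. With 1 line left out, 0 partner probes (HSC-3 or KON) or 1 (Ca9-22) were called. Both genes for the RAB escort proteins, CHM and CHML, which present new RAB proteins for prenylation, rose, by means of 1.07 ± 0.39 and 1.12 ± 0.20, but a second CHM probe had -0.64 ± 0.41 and was not called. These were the 2 calls among 12 kept probes (16.7%, against 8.5% of all probes) of prenylation and GDP dissociation inhibitors.

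Exchange factors had 1 higher and 1 lower call among 33 kept probes (6.06%), a share below the 8.5% of all probes. RIN1, an exchange factor for RAB5 proteins, fell, with changes of -2.50, -1.31, and -1.81 (mean -1.87 ± 0.60, adjusted p = 0.0307 from limma). DENND1B rose by 1.08 ± 0.37 on 1 of its probes, and its other kept probe had changes of -0.12, 0.72, and 2.49 and was not called. GTPase-activating proteins had 3 higher and 4 lower calls among 26 kept probes (26.9%, against 8.5% of all probes), from 6 genes. Of all probes, 3.98% were higher and 4.52% lower. RABGAP1 fell on 2 probes (-1.50 ± 0.25 and -0.96 ± 0.06), and TBC1D2, which acts on RAB7, fell by a mean of 1.66 ± 0.63 on the log2 scale. TBC1D1 fell on 1 probe (-1.46 ± 0.38) and had 0.33 and -0.80 on its other kept probes, not called. EVI5, RABGAP1L, and TBC1D5 rose, by 1.71 ± 0.53, 1.28 ± 0.48, and 1.34 ± 0.42, and a second RABGAP1L probe with changes of -0.56, -0.48, and 1.99 was not called.

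RAB effectors had 2 higher and 1 lower call among 43 kept probes (6.98%), a share below the 8.5% of all probes. SYTL2, an effector of RAB27 in docking vesicles at the membrane, was measured well above background on all 3 siDLEU1-2 arrays but on the siCtrl array of HSC-3 only, so it passed the filter in KON and Ca9-22 through the brighter array. SYTL2 rose 19.0-fold in HSC-3. With the dim siCtrl values raised to the detection floor, it was at least 13-fold higher in KON and at least 2.70-fold higher in Ca9-22. Its call is counted among the 14, but the filter fixed its direction in KON and Ca9-22, so no p-value is given for it. RAB11FIP4, an effector of RAB11, rose by 1.36 ± 0.39. FYCO1, which links RAB7 to kinesin, fell in all lines, with a mean of -2.24 ± 0.38 (adjusted p = 0.0243 from limma). The count of called partner probes and its balance depend on the processing. In place of 14 (8 higher and 6 lower), 9 were called with the filter of at least 3 of 6 arrays (4 and 5), 14 with the percentile of detected probes (6 and 8), 17 with centering on the median (8 and 9), 19 with detection asked for on each of the 6 arrays (8 and 11), and 21 with normexp (10 and 11).

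**Figure D4:**
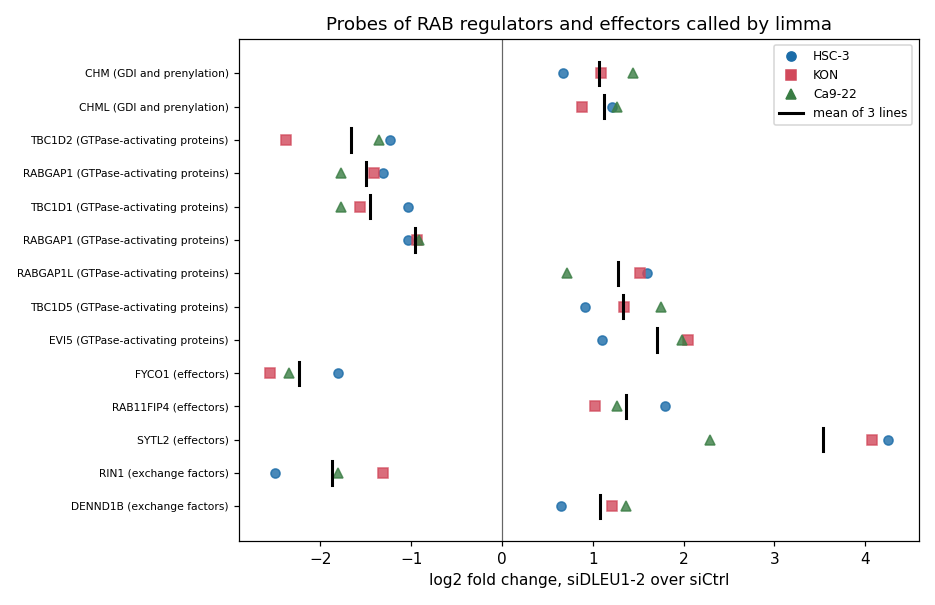
Each row is 1 of the 14 called probes of RAB regulators and effectors, with its list in brackets, and the x axis is the log2 fold change of siDLEU1-2 over siCtrl; points are the 3 lines and the black bar is their mean. Of the probes well above background on all 6 arrays, EVI5 has the largest rise, with a mean of 1.71, and FYCO1 the largest fall, with a mean of -2.24; the SYTL2 points of KON and Ca9-22 rest on siCtrl signals that were not well above background.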

How the data were processed

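Gene expression was measured on 6 one-color Agilent arrays. What the authors deposited is scanner output from Feature Extraction 10.7.3.1. It gives an intensity per spot on a linear scale, with background subtracted and detrended by the software, and not normalized between arrays. Their series table holds the same intensity, with a largest difference of 0.497%. Probe positions are on hg19. The normalization and filter of the study are not given in the sources used here.

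Control spots and outlier spots were dropped, spots of a probe were averaged, and the 75th percentile of each array was subtracted from the log2 intensity. At that percentile the processed signal was 200 to 257, and 43.0% to 45.7% of probes were well above background, counted where at least 50% of spots were. No spot was saturated (0 in all). All arrays were on 1 slide, and their number limits the precision. limma 3.58.1 (R 4.3.3) was fitted to 19956 probes with siRNA and cell line, two-sided, with Benjamini-Hochberg adjustment, and was tested on simulated data. Arrays were paired by cell line, since each line gave 1 array per siRNA, and deviations within a pair correlated at 0.83, 0.81, and 0.82. No source says whether lines were transfected on separate days.

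RAB genes named in the text have a probe called or over 2-fold in all 3 lines, probes over 1 apart in mean, probes over 2-fold in opposite directions between lines, or the seed match, and partners were named where called and over 2-fold in all 3 lines. Other names were chosen after their values were seen, to describe the rest of a step, the paralogs, and the remaining called partners. The members, steps, and lists were chosen with earlier results of these data known. Alternatives were other centerings, quantile normalization, normexp (offset 50), the series table, other filters, a floor for dim values, gene means, a 3-fold threshold, the methods' t-test, a fit with no block, and omission of each line. Gene names were looked up in RefSeq, and the siRNA sequence comes from the study's supplement. Protein sequences and transcript positions of probes were not analyzed here. A marker of the leukocyte list is not reported here.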

Additional observations from a re-analysis of the deposited data

Results flagged for a closer look

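RAB30 drew attention because HSC-3 moved against the other lines. Its changes, on the log2 scale and in the order HSC-3, KON, and Ca9-22, were -1.22, 1.08, and 0.98, a range of 2.31, with the probe well above background on all 6 arrays. With 1 array per line and siRNA, no test of the difference between lines was made.

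RAB38, which serves melanosomes and related organelles, has a range of 3.62 between lines, but no opposite movement was measured for it. Its signal after siCtrl was 3.87, -6.07, and 1.80, and after siDLEU1-2 it was 1.53, -4.79, and -0.17, and neither array of KON was well above background. The changes were -2.34 for HSC-3 and -1.97 for Ca9-22. The probe was not kept, and the difference between lines was not tested.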

How the results depend on the processing

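The 9 called RAB probes kept their direction in every alternative that included them, and 9 of 9 stayed called with normexp, the series table, a floor for dim values, quantile normalization, and both other centerings (9 to 12 RAB probes called in these, the 3 added under normexp being of RAB43, RAB9A, and RAB2B). With no filter on dim probes, 0 RAB probes, 0 partner probes, and not DLEU1 were called (unadjusted, 22 and 39 probes had p below 0.05, DLEU1 -3.72 with adjusted p = 0.141), and the median of all probes moved to 0.14. Without the replicate block, the counts were 0 RAB and 0 partner probes (10 and 14 unadjusted) and DLEU1, at -3.72, was not called (adjusted p = 0.183). The methods' t-test also gave 0 and 0 (9 and 12 unadjusted) and -3.72 for DLEU1 (adjusted p = 0.331). Leaving out 1 line gave 0 to 1 RAB probes, 0 to 1 partner probes, and -3.87 to -3.54 for DLEU1, with adjusted p from limma of 0.0467 to 0.103 and a call without Ca9-22 only. In a filter of at least 3 of 6 arrays, 7 RAB and 9 partner probes were called, and the other scalings, normexp, the floor, and the filter on all 6 arrays gave 14 to 21 partner probes. At 3-fold in place of 2-fold, 0 RAB probes passed in all 3 lines, against 7, and the other alternatives gave 5 to 9. The median change of RAB probes ran from -0.16 to -0.020 over all alternatives, and from -0.11 to -0.075 with 1 line left out. Changes of dim probes are poorly measured, as RAB3A shows, at -1.53 and at -0.74 with normexp. With detection asked for on all 6 arrays, RAB3A was left out and the other 8 called RAB probes stayed called.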
